A study of Sus scrofa with 48 samples.

Results

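CPT1A, ACSL1 and ACSL4, genes of fatty acid activation and of the entry of fatty acids into mitochondria, were followed across liver and fat of fed and fasted pigs. The members were all probe sets whose annotated gene symbol was 1 of these names. Each gene was represented by 1 probe set, so that the members were 3 of 6765 genes named on the array and 3 of the 23999 probe sets tested; their Entrez Gene numbers are 399527 for CPT1A, 448982 for ACSL1 and 448980 for ACSL4. With 1 probe set per gene, no transcript form could be told from another, and no second probe set was at hand to set beside a result.

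Long-chain fatty acids have to be coupled to coenzyme A before a cell can burn, store or build them into membranes, and this step is carried out by acyl-CoA synthetases such as ACSL1 and ACSL4. ACSL1 is the main long-chain acyl-CoA synthetase of adipocytes and a major one of liver, while ACSL4 prefers arachidonic acid and other polyunsaturated fatty acids. CPT1A, the liver form of carnitine palmitoyltransferase, moves the acyl group to carnitine at the outer mitochondrial membrane, is inhibited by malonyl-CoA, the product of acetyl-CoA carboxylase, and is regarded as the gate of mitochondrial fatty acid oxidation.

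The animals were 24 Yorkshire gilts (young female pigs), from each of which liver and fat RNA was measured on Affymetrix porcine arrays, 48 in all. Controls and treated animals alike were 6 months old and of a line bred for low residual feed intake. MC4R, a melanocortin receptor of the brain that curbs feeding, was wildtype (homozygous D298) in 12 gilts and homozygous N298 in 12, and in each genotype 6 gilts ate ad libitum and 6 went without feed for 3 days. The 8 groups, liver or fat of D298 fed, D298 fasted, N298 fed and N298 fasted gilts, held 6 arrays each, and every value below is a signal intensity in arbitrary units on a scale common to all arrays, or the difference of its log2. The comparison of feeding states asks how the tissues respond to fasting, and that of genotypes whether the MC4R form alters the level or the response.

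The labelled tissues could be recognised by their defining genes. All 9 measured hepatocyte markers lay above the median probe set in liver and 3 of 9 in fat, and all 8 adipocyte markers lay above it in fat and 2 of 8 in liver. No marker had a value of 0. The summed signal of 9 hepatocyte markers ran from 246826 to 360182 in liver but from 4136 to 20862 in fat, and that of 7 skeletal muscle markers, 70.7 to 279 in liver, ran from 213 to 94412 in fat. Of the 24 fat arrays, 12 had a muscle sum above 10000 (3 D298 fasted, 2 D298 fed, 3 N298 fasted and 4 N298 fed), and the fat results of the members are therefore also given without those 12 arrays, a choice made after the values were seen. Both tissues were measured in bulk, so a lower signal from fewer cells of a type cannot be told apart from less RNA per cell.

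Fasting moved the 3 genes in different ways. CPT1A rose in both tissues, ACSL4 fell in liver and rose in fat, and ACSL1 fell in fat while its difference in liver did not pass the test. Of the members, 2 of 3 passed in liver, where 4.47% of all probe sets passed, and 3 of 3 passed in fat, where 25.2% passed, at an adjusted p under 0.05 (limma, Benjamini-Hochberg over all probe sets). All 3 were bright: 95.6% of probe sets were dimmer than CPT1A in liver and 89.5% in fat, 99.2% and 98.9% were dimmer than ACSL1, and 86.9% and 89.9% were dimmer than ACSL4.

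**Figure D1:**
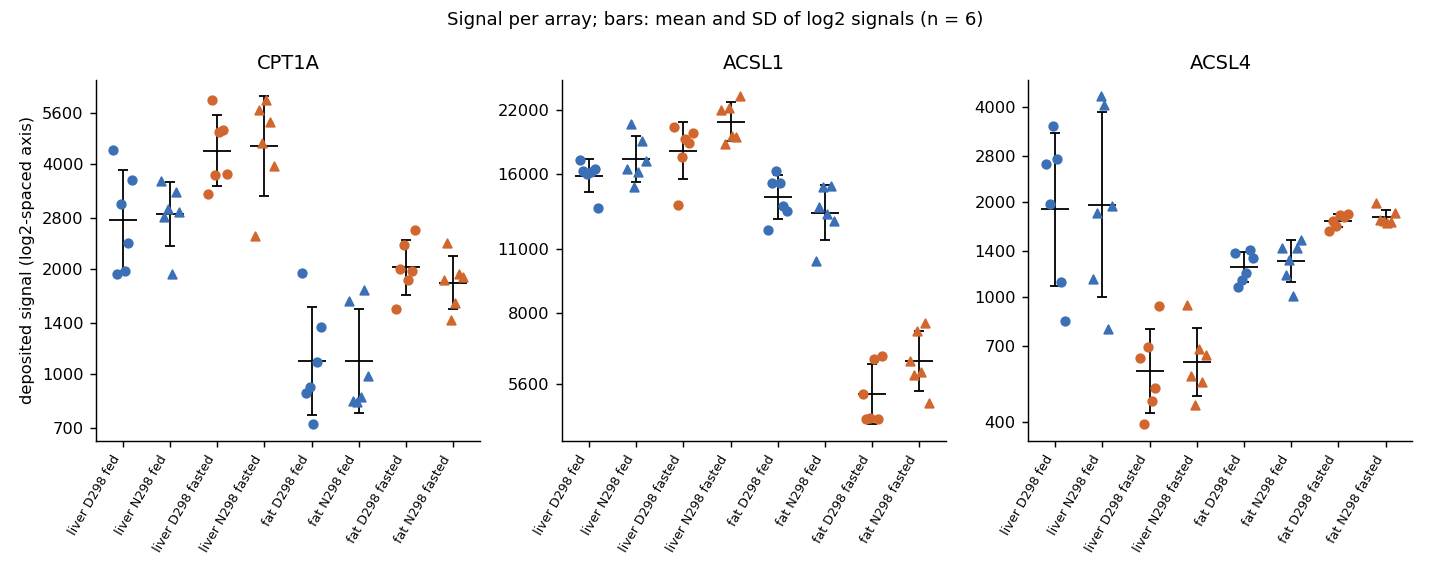
Signal of CPT1A, ACSL1 and ACSL4 on each array (vertical axis, log2-spaced) in the 8 groups; circles are D298 and triangles N298 gilts, and bars give the mean and SD of log2 signals of 6 arrays. All 12 fasted fat arrays lie below all 12 fed ones for ACSL1 and above them for ACSL4, whereas the feeding states overlap for CPT1A in both tissues.

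CPT1A, the gate to mitochondrial oxidation, was measured in liver at 1931, 2725 and 4386 (lowest, median and highest of 6 arrays) in D298 fed gilts and at 3290, 4330 and 6093 in D298 fasted gilts. In N298 liver its signals were 1940, 2941 and 3571 in the fed and 2487, 4930 and 6117 in the fasted state. The feeding states overlapped: 7 of 12 fasted livers lay above every fed liver, and 4 of 12 fed livers lay below every fasted one. Mean signal was 2906 ± 761 (SD, n = 12) in fed and 4574 ± 1151 (SD, n = 12) in fasted liver, and CPT1A rose 1.57-fold (log2 0.65 ± 0.17 SE, 95% interval 0.31 to 1.0, limma adjusted p = 0.0232). Among all probe sets 2.27% were called higher in fasted liver. The call was lost without any 1 of replicate numbers 2, 3, 4 or 5 (adjusted p = 0.0659 to 0.143). The rise was 0.66 in D298 and 0.65 in N298 gilts, but neither genotype alone passed (limma adjusted p = 0.200 and 0.212), where 1.63% and 1.48% of probe sets did.

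In fat CPT1A was lower than in liver but responded in the same direction. Its signals were 719, 1002 and 1952 (lowest, median and highest) in D298 fed and 1541, 1986 and 2593 in D298 fasted gilts. In N298 fat they were 832, 924 and 1738 in the fed and 1428, 1883 and 2373 in the fasted state. Here 5 of 12 fasted arrays lay above all fed arrays and 9 of 12 fed arrays below all fasted ones. The mean went from 1150 ± 414 (SD, n = 12) to 1951 ± 348 (SD, n = 12), a rise of 1.76-fold (log2 0.82 ± 0.14 SE, 95% interval 0.53 to 1.11, limma adjusted p = 1.40e-04), and 15.1% of all probe sets were called higher in fasted fat. Both genotypes passed by themselves, with 0.89 in D298 (adjusted p = 0.00400) and 0.75 in N298 (adjusted p = 0.0114), where 12.6% and 15.5% of probe sets passed. The N298 call was lost without replicate number 2 (0.59, adjusted p = 0.0827) and without the 4 fat arrays whose hepatocyte sum exceeded 15000 (0.60, adjusted p = 0.113). Without the arrays of high muscle signal the rise was 1.26 (adjusted p = 0.00219).

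The spread of CPT1A was wider in fed than in fasted fat. Its coefficient of variation was 36.0% over the 12 fed and 17.9% over the 12 fasted arrays, against 26.2% and 25.2% in fed and fasted liver. Of the fed fat arrays 8 lay at 719 to 1086 and 4 at 1362 to 1952, the latter with those of replicate number 1 in both genotypes (1952 and 1623).

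ACSL1, which activates fatty acids for storage and oxidation, separated fed from fasted gilts most widely of the 3 genes, in fat. Its signals were 12092, 14478 and 16206 (lowest, median and highest) in D298 fed fat and 4704, 5036 and 6447 in D298 fasted fat. In N298 fat they were 10381, 13323 and 15053 in the fed and 5102, 6120 and 7587 in the fasted state. Every fasted array lay below every fed array, with the highest fasted signal at 7587 and the lowest fed signal at 10381; 1.69% of all probe sets had fed and fasted fat arrays that did not overlap, 1.11% in this direction.

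The mean of ACSL1 in fat went from 13788 ± 1654 (SD, n = 12) in fed to 5866 ± 982 (SD, n = 12) in fasted gilts. The log2 signal fell by 1.24 ± 0.080 (SE), which left 42.3% of the fed signal (95% interval of the log2 difference -1.41 to -1.07, limma adjusted p = 1.36e-09), and 10.1% of probe sets were called lower in fasted fat. It ranked 20 of 23999 by p and 289 from the lowest difference. The fall was -1.42 in D298 (limma adjusted p = 1.75e-07) and -1.07 in N298 (adjusted p = 2.98e-06), and it was -1.36 (adjusted p = 0.00172) without the arrays of high muscle signal, where N298 alone did not pass (-1.12, adjusted p = 0.0828).

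In liver ACSL1 was among the brightest probe sets in either feeding state. Its signals were 13517, 16155 and 17150 (lowest, median and highest) in D298 fed and 13708, 18828 and 20202 in D298 fasted liver. In N298 liver they were 15008, 16713 and 20541 in the fed and 18596, 20627 and 23552 in the fasted state. The states overlapped, with 3 of 12 fasted arrays above all fed arrays and 1 of 12 fed arrays below all fasted ones. Means were 16613 ± 1765 (SD, n = 12) and 19448 ± 2521 (SD, n = 12), a ratio of 1.17 (log2 0.22 ± 0.076 SE, 95% interval 0.064 to 0.38). This did not pass the test (limma adjusted p = 0.110). It did pass with each array centred on its median (0.28, adjusted p = 0.0415), among the brighter probe sets only (0.22, adjusted p = 0.0459) and without replicate number 2 (0.31, adjusted p = 0.0179).

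ACSL4, the synthetase with a preference for polyunsaturated fatty acids, was the member that changed most in liver. Its signals were 838, 2315 and 3484 (lowest, median and highest) in D298 fed liver and 395, 578 and 934 in D298 fasted liver. In N298 liver they were 794, 1895 and 4344 in the fed and 454, 609 and 941 in the fasted state. The overlap was narrow: 10 of 12 fasted livers lay below every fed liver and 10 of 12 fed livers above every fasted one. The mean went from 2245 ± 1226 (SD, n = 12) to 623 ± 175 (SD, n = 12), and ACSL4 fell by 1.68 ± 0.23 (SE) on the log2 scale, that is 3.20-fold (95% interval 2.29- to 4.49-fold, limma adjusted p = 8.24e-05). Among all probe sets 2.20% were called lower in fasted liver, and ACSL4 ranked 65 from the lowest difference. The fall was -1.70 in D298 (adjusted p = 0.00653) and -1.66 in N298 (adjusted p = 0.00879).

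The fed livers were far more variable in ACSL4 than the fasted ones. The coefficient of variation was 54.6% in fed and 28.0% in fasted liver, and the highest fed signal was 5.47 times the lowest. The 5 highest fed signals (2652, 2742, 3484, 4058 and 4344) came from replicate numbers 1, 3 and 4, and the 4 lowest (794, 838, 1114 and 1142) from numbers 1, 5 and 6.

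In fat ACSL4 moved the other way and with little spread. Its signals were 1080, 1260 and 1415 (lowest, median and highest) in D298 fed and 1618, 1772 and 1835 in D298 fasted fat. In N298 fat they were 1010, 1371 and 1520 in the fed and 1721, 1752 and 1984 in the fasted state. Every fasted array lay above every fed array, which held in this direction for 0.579% of probe sets, and the coefficient of variation was 12.6% in fed and 5.25% in fasted fat.

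The mean of ACSL4 in fat went from 1284 ± 162 (SD, n = 12) to 1774 ± 93.2 (SD, n = 12). It rose 1.39-fold (log2 0.48 ± 0.058 SE, 95% interval 0.35 to 0.60, limma adjusted p = 3.87e-06), by 0.49 in D298 (adjusted p = 4.63e-04) and 0.46 in N298 (adjusted p = 5.29e-04). Without the arrays of high muscle signal the difference was 0.53 and no longer passed (adjusted p = 0.0521), although it was no smaller. With the muscle sum as a covariate it was 0.47 and passed.

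**Figure D2:**
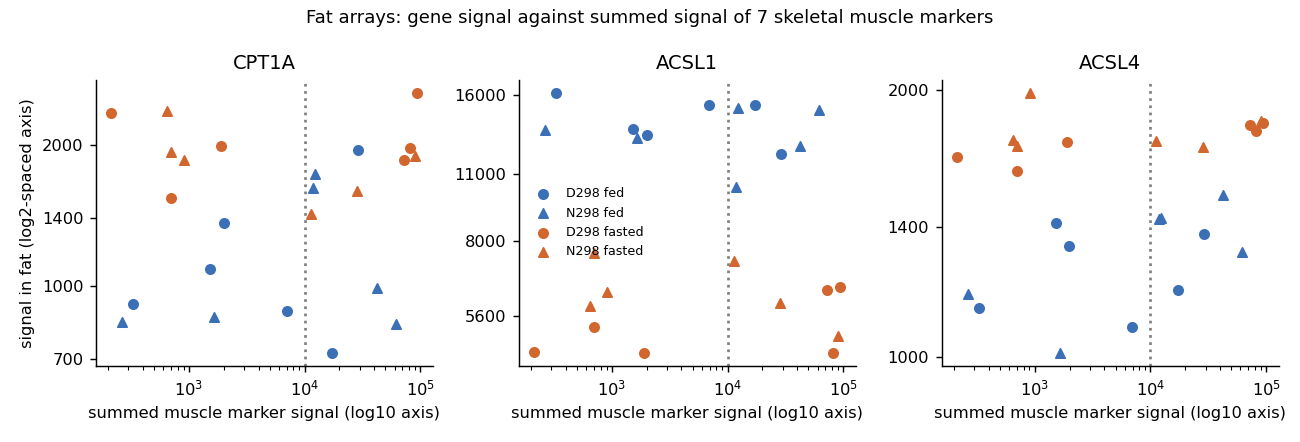
Signal of each gene in the 24 fat arrays (vertical axis, log2-spaced) against the summed signal of 7 skeletal muscle markers (horizontal axis, log10), with circles for D298, triangles for N298, blue for fed and orange for fasted gilts; the dotted line marks a sum of 10000. Fed and fasted arrays of ACSL1 and ACSL4 are apart on both sides of the line, and CPT1A overlaps on its right.

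Of 53 markers of all cell types measured 12 (22.6%) were called in fasted fat, against 34.2% of all genes. Of the endothelial markers 4 of 7 were higher, of the fibroblast markers 3 of 6 were lower, and of the hepatocyte markers 1 of 9 was higher, while 1 of 8 adipocyte markers was higher and 1 lower. Of the erythroid markers 1 of 3 and of the muscle markers 1 of 7, CPT1B, was higher, and no macrophage or lymphocyte marker passed. In fasted liver 1 adipocyte marker was higher and no other marker passed. The summed adipocyte signal was 67411 to 103991 in fed and 68498 to 98687 in fasted fat, so its ranges overlapped almost fully. The hepatocyte sum had a median of 5262 in fed and 7842 in fasted fat. Without the 4 fat arrays of high hepatocyte signal CPT1A differed by 0.74, ACSL1 by -1.19 and ACSL4 by 0.52, all called. The part of the endothelial and fibroblast markers in these differences was not tested.

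The responses of the tissues were then compared in a model of both tissues that treats the gilt as a random block. The response of ACSL1 was lower in fat than in liver (log2 difference -1.46 ± 0.10 SE, 95% interval -1.67 to -1.26, limma adjusted p = 4.37e-15), and it ranked 5 by p among all probe sets. That of ACSL4 was higher in fat than in liver (2.16 ± 0.27 SE, 95% interval 1.62 to 2.69, adjusted p = 3.05e-08). For CPT1A the responses differed by 0.16 ± 0.21 (SE, adjusted p = 0.669), and the interval of -0.26 to 0.59 spans 0. Of all probe sets 16.1% had responses that differed between the tissues. ACSL4 was 1 of 65 probe sets (0.271%) called lower in fasted liver and higher in fasted fat, and CPT1A 1 of 124 (0.517%) called higher in both.

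**Figure D3:**
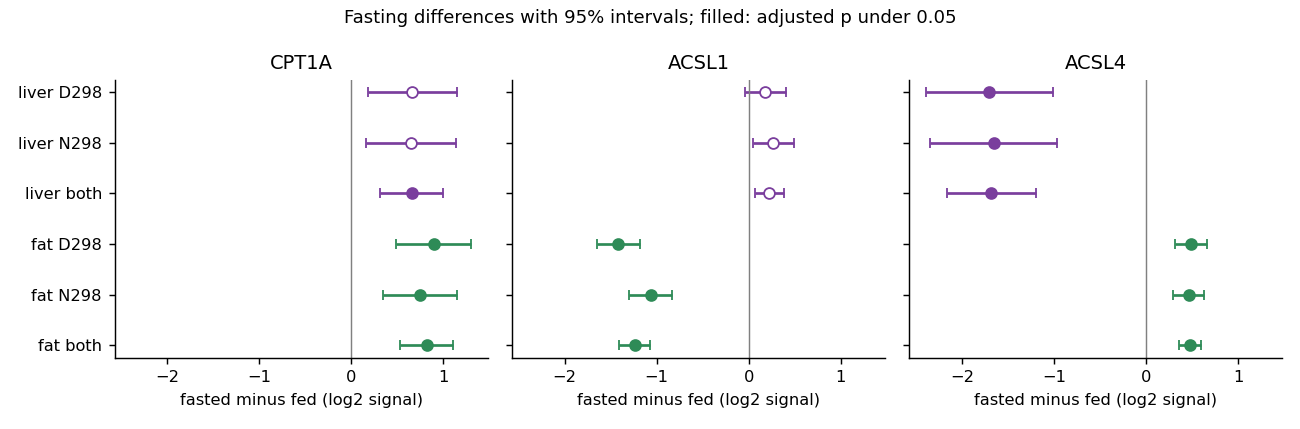
Fasted minus fed log2 signal of CPT1A, ACSL1 and ACSL4 in liver and fat, with 95% intervals, over all gilts and within each genotype. ACSL4 lies at -1.68 in liver and 0.48 in fat, ACSL1 at 0.22 and -1.24, and CPT1A above 0 in both tissues at 0.65 and 0.82.

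The order of the 8 groups differed between the genes. For CPT1A all 4 liver groups had higher means than all 4 fat groups, and within each tissue both fasted groups stood above both fed groups. The step from liver D298 fed to fat D298 fasted (log2 gap 0.45) was smaller than the SD within a group, as were the gaps between genotypes of 1 tissue and feeding state. For ACSL1 the 4 liver groups and the 2 fed fat groups were close, with fed fat below fed liver as deposited but above it (0.17) with quantile normalization. Their means went from 20800 ± 2018 (SD, n = 6) in N298 fasted liver to 13275 ± 1727 (SD, n = 6) in N298 fed fat, and the 2 fasted fat groups lay below with no overlap. Between neighbours within these sets, the genotypes of fasted liver (gap 0.21) and of fasted fat (gap 0.24) stood apart by slightly more than the larger SD, with overlapping ranges. For ACSL4 the fed livers were highest on average, the fasted fat groups came next and the fed fat groups after them, and the fasted livers were lowest, with no overlap between fed fat and fasted liver.

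Set against liver of the same gilts, CPT1A was lower in fat in the fed (log2 fat minus liver -1.37 ± 0.15 SE, limma adjusted p = 2.50e-11) and in the fasted state (-1.20 ± 0.15 SE, adjusted p = 7.36e-10). These tissue differences rest on the scaling of the arrays. The median probe set stood 0.21 higher in fat in the fed and 0.32 higher in the fasted state. Of all probe sets 62.3% and 66.4% were called. The ratio of 3' to 5' signal of control genes also differed between the tissues. In fed gilts its median was 2.42 in fat and 2.74 in liver for Gapdh. For Actin it was 1.26 in fat and 0.235 in liver, and fasted gilts had the same order. Whether this bears on the tissue differences was not tested. ACSL4 was lower in fat in the fed state (-0.60 ± 0.19 SE, adjusted p = 0.00497) and higher in fat in the fasted state (1.56 ± 0.19 SE, adjusted p = 4.68e-10). The fed difference no longer passed without replicate number 3 (-0.38) or 4 (-0.40), and the signs were the same under each scaling tried. With the replicate number added as a block, the fit gave the fed difference at number 1 only (-0.63, limma adjusted p = 0.126). That value is not an average over the numbers and cannot show what a block does to the call. ACSL1 was far lower in fat in the fasted state (-1.74 ± 0.071 SE, adjusted p = 2.97e-26). Its fed difference was small (-0.27 ± 0.071 SE, adjusted p = 8.88e-04) and turned to 0.17 with quantile normalization, so no direction is given for it.

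No member was called between the MC4R genotypes, and neither was any other probe set (0 of 23999 in limma for genotype and for interaction, in either tissue). At an unadjusted p under 0.05 there were 1212 probe sets for genotype in liver, 1321 in fat, and 1390 and 1368 for the interaction. N298 minus D298 was 0.05 for CPT1A (95% interval -0.29 to 0.39), 0.16 for ACSL1 (0.0052 to 0.32, adjusted p = 0.951) and 0.07 for ACSL4 (-0.42 to 0.56) in liver. In fat it was -0.08 for CPT1A (-0.36 to 0.21), 0.06 for ACSL1 (-0.10 to 0.23) and 0.05 for ACSL4 (-0.07 to 0.17). The intervals for ACSL4 in fat are narrow, those for CPT1A and for ACSL4 in liver wide.

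The fall of ACSL1 in fat was smaller in N298 than in D298 gilts by 0.35 ± 0.16 (SE) on the log2 scale. This interaction had an unadjusted p of 0.0408 and an adjusted p of 0.868 in limma, and it did not pass under any of 17 alternatives (0.27 to 0.49, adjusted p = 0.690 to 0.999). In fasted fat alone ACSL1 was 0.24 higher in N298 (adjusted p = 0.724), and in fed fat -0.11. For CPT1A the interaction was -0.01 in liver and -0.15 in fat, and for ACSL4 0.04 and -0.02, each within an interval that spans 0.

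The labels describe a block design and number the gilts of each group 1 to 6, so that a fasting difference can be formed at each number from both genotypes. For CPT1A in liver these differences were -0.47, 1.34, 0.45, 1.49, 0.87 and 0.24 at numbers 1 to 6, and in fat -0.07, 1.34, 1.07, 1.14, 0.51 and 0.94. Number 1 was thus the only one of 6 at which the mean of both genotypes was not higher after fasting. This held in both tissues, which came from the same gilts. In fat the genotypes were split at number 1 (-0.34 in D298 and 0.20 in N298). In liver both genotypes were lower after fasting at number 1 (-0.41 in D298 and -0.52 in N298), where the fed signals were high (4386 and 3571) and the fasted ones low (3290 and 2487). Without number 1 the CPT1A response was 0.88 in liver and 1.0 in fat.

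For ACSL4 in liver the differences were -1.16, -2.02, -2.79, -2.56, -0.84 and -0.70, all below 0 but of unequal size. They were largest at numbers 3 and 4, where the fed geometric means were 3890 and 3336, and smallest at 5 and 6, where these were 940 and 1276. In fat all 6 differences of ACSL4 lay above 0 (0.31 to 0.69) and all 6 of ACSL1 below 0 (-1.45 to -0.95). ACSL1 in liver was higher at 5 of 6 numbers (-0.19 to 0.50).

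A test of whether the fasting difference varied between numbers, added after these values were seen, gave an unadjusted p of 8.01e-05 for CPT1A in liver, the third smallest of 23999, and an adjusted p of 0.443 (limma). The unadjusted p was 0.0131 for CPT1A in fat and 0.00899 for ACSL4 in liver, with adjusted p of 0.764 and 0.963. No probe set passed in either tissue, so the variation between numbers did not hold up against the correction.

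**Figure D4:**
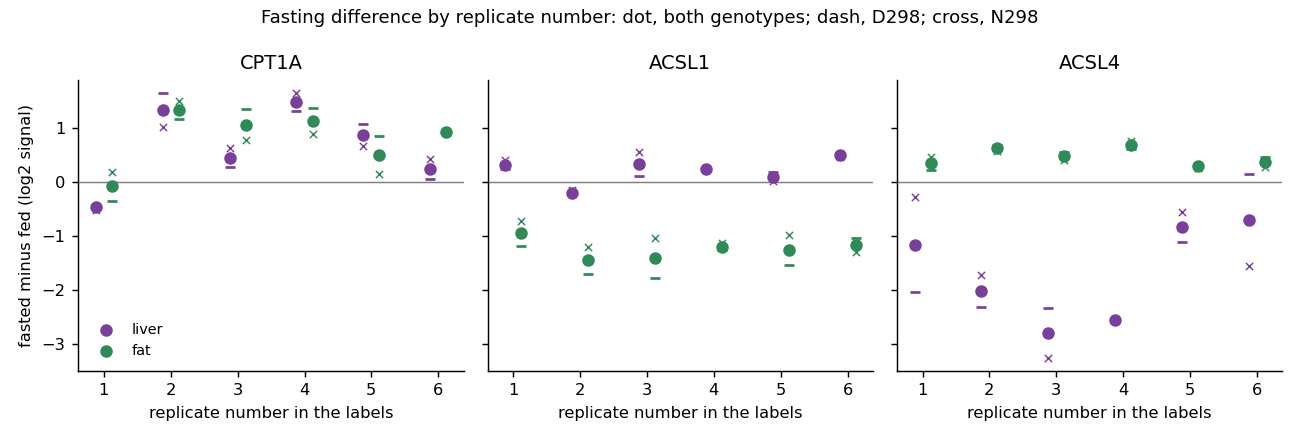
Fasted minus fed log2 signal at each replicate number (horizontal axis, 1 to 6) for CPT1A, ACSL1 and ACSL4 in liver and fat, each point the mean of both genotypes. CPT1A is below 0 at number 1 in both tissues and above 0 at the other numbers, and ACSL4 in liver ranges from -2.79 at number 3 to -0.70 at number 6.

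Of 75 other genes listed for fatty acid uptake, activation, the carnitine shuttle and their control, 43 were measured. In fasted liver 4 were higher, 2 lower and 37 did not pass, where 7.20% of 6765 genes passed. In fasted fat 6 were higher, 11 lower and 26 did not pass, where 34.2% of genes passed. Without the 12 arrays of high muscle signal 6 of these 17 fat calls held (ACACA, ACSL5, CPT1B, PRKAA1, SHMT1 and SLC27A6) and 11 did not (ABCD3, ACBD5, ACOT7, ACOT13, ALDH9A1, DBI, PRKAB1, PRKAG2, PRKAG3, SREBF1 and TMLHE), with no change of sign. In the same fit, which kept 12 fat arrays, the calls over all probe sets fell from 6048 to 1747. With the muscle sum as a covariate and no fat array left out, 6041 probe sets were called and all 17 fat calls held. What the smaller number of arrays by itself did to the calls was not tested. The median difference of the 43 genes was -0.000057 in liver and -0.01 in fat, against 0.0048 and 0.01 over all genes.

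Of 6 other genes of the carnitine shuttle measured, 2 were higher in fasted liver and 4 did not pass. CRAT, carnitine acetyltransferase, rose by 1.09 ± 0.12 (SE, limma adjusted p = 3.56e-06), and SLC25A20, the carrier that takes acylcarnitine across the inner membrane, by 0.83 ± 0.097 (SE, adjusted p = 8.76e-06). In fat CRAT (-0.09, adjusted p = 0.654) and SLC25A20 (-0.04, adjusted p = 0.779) did not pass, and their responses differed between the tissues by -1.17 and -0.87 (adjusted p = 1.23e-05 and 4.53e-07), whereas that of CPT1A did not pass this test. CPT1B, the muscle form of the CPT1 enzyme, rose by 1.23 ± 0.29 (SE, adjusted p = 0.00291) in fat, at signals below the median probe set (means of 77.5 in fed and 155 in fasted fat), and it is itself 1 of the 7 muscle markers. CPT2, which reforms acyl-CoA inside mitochondria, was dim in both tissues and passed in neither.

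Among the other acyl-CoA synthetases 1 of 5 was lower in liver and 1 of 5 higher in fat. ACSL3, linked to lipid droplets and the endoplasmic reticulum, fell by 0.57 in liver (adjusted p = 0.0257) and gave 0.11 in fat (adjusted p = 0.522), while ACSL5 rose by 0.34 in fat (adjusted p = 0.0390) and gave 0.07 in liver. The call of ACSL3 was lost under 7 of 14 alternatives and that of ACSL5 under 11 of 17. Dimmer probe sets of ACSL5 gave 0.39 (limma adjusted p = 0.0154) and 0.25 (adjusted p = 0.117) in fat. ACSL3 differed between the tissues in the same direction as ACSL4 (0.68, adjusted p = 0.0189).

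Of the enzymes that set malonyl-CoA, the inhibitor of CPT1A, ACACA (acetyl-CoA carboxylase alpha) fell by 1.99 ± 0.45 (SE) in liver (adjusted p = 0.0103) and by 2.47 ± 0.22 (SE) in fat (adjusted p = 7.67e-08). Its liver signal was below the median probe set (means of 60.6 fed and 19.8 fasted), the liver call was lost without replicate number 3 or 4, and a dimmer probe set of ACACA gave -0.41 in liver and -0.07 in fat and passed in neither, so the fall of ACACA rests on 1 of 2 probe sets in both tissues. Subunits of AMP-activated protein kinase, which phosphorylates acetyl-CoA carboxylase, went both ways in fat: PRKAA1 (0.63), PRKAG2 (0.37) and PRKAB1 (0.35) were higher and PRKAG3 (-0.55), at signals below the median, lower. None of these subunits passed in liver. A dimmer probe set of PRKAA1 gave 0.39 in fat and did not pass (limma adjusted p = 0.0951).

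Of 5 genes of uptake and acyl-CoA binding 1 passed in liver and 3 in fat, and of 3 of carnitine synthesis none passed in liver and 3 in fat, beside the 7.20% and 34.2% of all genes. SLC27A6, a fatty acid transport protein, fell by 1.09 ± 0.16 (SE, adjusted p = 3.37e-05) in fat and rose by 0.98 ± 0.24 (SE, adjusted p = 0.0192) in liver, the reverse of ACSL4, but 2 dimmer probe sets of the gene gave -0.09 and 0.09 in liver, and the liver call was lost with no trend and without replicate number 4 or 6. The acyl-CoA binding proteins ACBD5 (-0.27) and DBI (-0.19) were lower in fat. Of the enzymes of carnitine synthesis TMLHE (-0.59) and ALDH9A1 (-0.53) fell and SHMT1 (0.99) rose in fat, of which only SHMT1 kept its call without the arrays of high muscle signal. The calls of DBI and of PRKAG2 in fat were each lost under 6 of 17 alternatives.

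ABCD3, a transporter that brings acyl-CoA into peroxisomes, rose by 1.01 ± 0.11 (SE, adjusted p = 4.90e-06) in liver and fell by 0.45 in fat (adjusted p = 0.0165). The call in fat was lost without replicate number 5 or 6 and without the arrays of high muscle signal, while 2 dimmer probe sets of ABCD3 passed in both tissues with the same signs. The thioesterases ACOT7 (-1.13, at signals below the median) and ACOT13 (-0.23), which cleave acyl-CoA again, were lower in fat, and these calls were lost under 8 of 16 and 10 of 17 alternatives. A dimmer probe set of ACOT13 gave -0.19 in fat and did not pass (limma adjusted p = 0.196). SREBF1, a transcription factor of lipid synthesis, fell by 1.27 ± 0.25 (SE, adjusted p = 7.56e-04) in fat, where its signal was below the median probe set. The call was lost without the arrays of high muscle signal, and none of the other 8 regulators passed in either tissue by its brightest probe set. A dimmer probe set of PPARD, a nuclear receptor activated by fatty acids, gave -1.32 in fat and passed (adjusted p = 0.00718), and a further one gave -0.17 and did not.

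**Figure D5:**
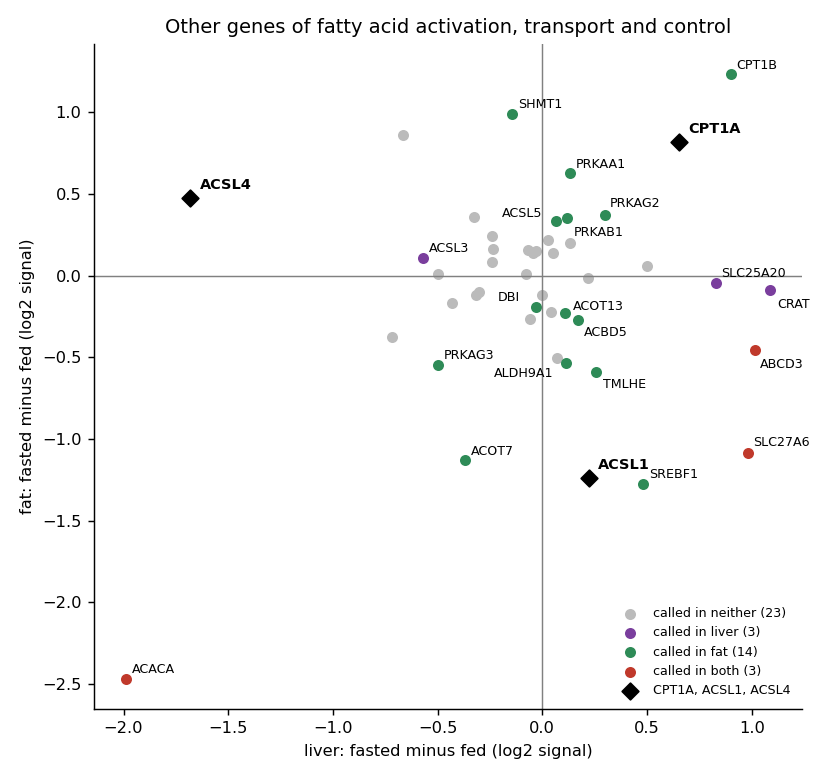
Fasted minus fed log2 signal in liver (horizontal axis) and fat (vertical axis) of 43 other genes of fatty acid activation, transport and control, coloured by the tissue in which they were called, with CPT1A, ACSL1 and ACSL4 as black diamonds. ACSL4 lies at the upper left, at -1.68 in liver and 0.48 in fat, and ACSL1 lies among genes lower in fat.

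The genes most like each member were taken as the 3 with the highest Pearson r of log2 signals over the 24 arrays of a tissue, all arrays sharing the fed and fasted groups. In liver ACSL4 was most like FASN (fatty acid synthase, r = 0.88), SCD (stearoyl-CoA desaturase, r = 0.88) and FDFT1 (squalene synthase, r = 0.87), and with group means removed these were 0.76, 0.72 and 0.64. All 3 of these genes were lower in fasted liver, by 3.22, 1.53 and 0.83 on the log2 scale. In fat ACSL4 was most like DYRK1A (0.91), ASXL1 (0.90) and LAMP2 (0.87), and with group means removed these were 0.64, 0.55 and 0.31.

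ACSL1 in fat was most like PSPH (phosphoserine phosphatase, r = 0.98), DGAT2, which makes triglyceride (0.97), and SDHC, a subunit of succinate dehydrogenase (0.96), and in liver like HSD11B1 (0.84), FAU (0.81) and RPL22 (0.78). Once group means were removed, these were 0.79, 0.67 and 0.61 in fat and 0.81, 0.68 and 0.62 in liver. CPT1A in fat was most like INPP5F (0.92), KLF11 (0.92) and TMEM131 (0.89), and in liver like TMEM181 (0.82), EGFR (0.78) and SF3A3 (0.75). The values without group means were 0.86, 0.80 and 0.77 in fat and 0.72, 0.71 and 0.59 in liver. No gene was among the 3 most like a member in both tissues. These correlations are descriptions over arrays that share their groups and scaling, fasting included.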

How the data were processed

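The authors' deposited values are signal intensities on a linear scale, 1 for each probe set on each array, from the affy package and MAS5, per the submitters' processing notes; versions are not given in the sources used here. In the deposited values the mean without the lowest and highest 2% was 500 on every array, no value was 0, and no array copied another. Array medians were 123 to 149 in liver and 159 to 193 in fat. After 124 of 24123 probe sets were left out as controls, log2 of the other 23999 was taken with nothing added.

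Each tissue was fitted with limma 3.58.1 under R 4.3.3 (lmFit and eBayes, with trend), using the 4 groups of genotype and feeding plus the replicate number as a block, as the labels speak of blocks. For the comparison of tissues the gilt was a random block over 48 arrays (correlation 0.0841). Arrays of a gilt were matched by group and number. Residuals gave this as the best match within the group for 22 of 24, though the r of matched arrays was only 0.016 to 0.065. P-values were 2-sided and adjusted by Benjamini and Hochberg over all probe sets. The gilt is the replicate.

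A single gene symbol was known for 10069 probe sets. Other genes were taken from 8 pathway lists, each by its brightest probe set, and named where they passed in a tissue. The members, lists and markers were chosen with earlier results of these data known. The models were tested on simulated data. Alternatives covered the block, scaling, dim probe sets, 32 added before log2, trend, array weights and each replicate number left out. Correlations between gilts used SciPy 1.17.1, figures Matplotlib 3.10.9.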

Additional observations from a re-analysis of the deposited data

Results flagged for a closer look

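Of 24 groups of 6 arrays examined for the members, 1 held an array far from the others, as chance gives about once in 20 groups. ACSL1 in the liver of D298 fed gilts was 13517 in replicate 6, and the next lowest array of the group was at 16000. Without replicate numbers in turn the fasting difference of ACSL1 in D298 liver was 0.11 to 0.26 and passed in none of these fits.

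The fasting responses of liver and fat differed by the test of the difference itself for ACSL1 (-1.46, fat minus liver) and ACSL4 (2.16). Among the other genes named, the difference passed for SLC27A6 (-2.07), SREBF1 (-1.76), ABCD3 (-1.47), CRAT (-1.17), SLC25A20 (-0.87), TMLHE (-0.84), ALDH9A1 (-0.65), ACBD5 (-0.44) and ACOT13 (-0.34), all with the lower response in fat. It passed with the higher response in fat for SHMT1 (1.13), ACSL3 (0.68) and PRKAA1 (0.50). Among listed genes called in neither tissue alone, it passed in the same direction for PPARGC1A (1.53, limma adjusted p = 0.0156) and PRKAA2 (0.68, adjusted p = 0.0434). Both had fat signals below the median probe set. Of all probe sets 16.1% passed this test.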

How the results depend on the processing

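Fasting calls of the members kept their direction under every alternative. In liver CPT1A ranged from 0.49 to 0.88 without each replicate number in turn and was not called with no trend (0.65), ACSL1 (0.17 to 0.31) was called median-centred (0.28) or among brighter probe sets (0.22), and ACSL4 was -1.88 to -1.46. Within D298 and N298 liver, leaving out numbers gave 0.46 to 0.88 and 0.45 to 0.88 for CPT1A, called only without number 1, and -2.07 to -1.53 and -1.93 to -1.34 for ACSL4, lost without number 2 in D298 and 3 or 4 in N298. In N298 fat CPT1A was 0.59 to 0.86, not called without number 2. Without arrays of high muscle signal ACSL4 was not called in fat (0.53), D298 fat (0.50) or N298 fat (0.55), nor ACSL1 in N298 fat (-1.12); without those of high hepatocyte signal CPT1A was not called in N298 fat (0.60). The fed tissue difference turned for ACSL1 with quantile normalization (0.17). For ACSL4 it ranged from -0.84 to -0.38 without each number and was not called without number 3 or 4. With a replicate block added, the fit gave the ACSL4 difference at number 1 only (-0.63, not called).

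Same-numbered arrays of a tissue deviated together little (median r 0.0075 in liver and 0.017 in fat), so the numbers may be no more than names. In fat, however, 4 of 36 same-numbered pairs had r above 0.1, the highest 0.147. Whether the numbers mark the blocks of the design was not tested. With no replicate block the fasting differences were unchanged, since the numbers are balanced, and each member kept its call (adjusted p = 0.0087 for CPT1A and 0.0749 for ACSL1 in liver). Fat CPT1A with fat ACSL4 reached r = 0.57, and CPT1A between tissues r = 0.49.

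Genotype and interaction values, none called, turned sign as follows. Median-centred: CPT1A -0.028 and ACSL4 -0.037 in fed liver, CPT1A 0.0089 in fed fat, interaction 0.11 for CPT1A in liver and 0.0060 for ACSL4 in fat. Array weights: CPT1A interaction 0.021 in liver, CPT1A 0.032 in fed fat. Quantile: ACSL1 interaction -0.054 in liver. Without high muscle signal: CPT1A 0.11 in fasted fat, interactions 0.26 for CPT1A and 0.048 for ACSL4. Without high hepatocyte signal: CPT1A 0.077 in fed fat, ACSL4 interaction 0.017. Muscle covariate: ACSL4 interaction 0.0018. Without each replicate number: -0.026 to 0.15 for ACSL4 in liver, -0.040 to 0.13 for CPT1A in fed liver, -0.18 to 0.30 for ACSL4 in fed liver, -0.011 to 0.13 for CPT1A in fasted liver, -0.094 to 0.11 for CPT1A in the interaction in liver, -0.30 to 0.40 for ACSL4 in the interaction in liver, -0.16 to 0.00044 for CPT1A in fat, -0.0060 to 0.12 for ACSL1 in fat, -0.14 to 0.090 for CPT1A in fed fat, -0.015 to 0.061 for ACSL4 in fasted fat, -0.076 to 0.0084 for ACSL4 in the interaction in fat.

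Called probe sets went from 6048 to 1747 in fat, 3034 to 856 in D298 fat, 3718 to 209 in N298 fat and 3864 to 2429 for the tissue responses without high muscle signal, and to 1651 and 2434 in D298 and N298 fat without high hepatocyte signal. Without 1 replicate number they were 667 to 901 in liver, 232 to 346 and 174 to 271 in D298 and N298 liver and 1825 to 3641 in D298 fat, and with no trend 240 and 223 in D298 and N298 liver. Among brighter probe sets 9708 differed between fat and liver in fed gilts and 10008 in fasted gilts. For genotype and interaction, no replicate block called 1 probe set in liver and 2 in fasted liver, a random block the same, and leaving out a number up to 4. Median-centring moved the share of calls that were higher from 50.8% to 68.1% in liver, 52.4% to 80.4% in N298 liver, 60.1% to 43.2% in fat, 51.9% to 31.1% and 58.5% to 44.5% in D298 and N298 fat, and 54.9% to 28.0% for the tissue responses. For fat against liver the share moved from 64.6% to 47.3% in fed gilts and from 66.7% to 44.9% in fasted gilts (53.2% with quantile normalization). Without high muscle signal it was 49.8% in fat and 34.9% in N298 fat. Precision is limited by the 6 arrays per group.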

Other observations

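Differences between gilts of the same group were compared for the members over 24 gilts, after group means and replicate numbers were removed, in 9 relations (3 pairs of genes in each tissue and each gene between tissues). CPT1A in liver and CPT1A in fat of the same gilt varied together (Pearson r = 0.57, permutation p = 0.00344, adjusted p = 0.0310; Spearman rho = 0.59, permutation p = 0.00302, adjusted p = 0.0272). The permutations shuffled all 24 residuals freely, although removing group means and numbers leaves fewer independent values. The permutation p-values here and below are therefore too small, and whether the relation passes with this allowed for was not tested. Without the 2 gilts farthest from the median r was 0.47. With the replicate numbers kept in, r was 0.49 and did not pass (adjusted p = 0.0674).

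The other 8 relations did not pass. ACSL4 in liver varied against ACSL4 in fat (r = -0.41, permutation p = 0.0483, adjusted p = 0.142) and against CPT1A in liver (r = -0.41, permutation p = 0.0476, adjusted p = 0.142). CPT1A and ACSL4 in fat had r = 0.36 (permutation p = 0.0848, adjusted p = 0.153), and this was 0.57 (adjusted p = 0.0342) with the replicate numbers kept in. ACSL1 in liver and in fat had r = 0.30 (permutation p = 0.149, adjusted p = 0.223).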
